A study of Homo sapiens with 9 samples.

Results

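The 39 HOX genes of the 4 human clusters were read out in 3 kidney cell lines. They are the rows of the deposited table, 39 of 28395, whose gene identifier maps to a protein-coding symbol made of HOXA, HOXB, HOXC or HOXD and a number, 11 in the HOXA cluster on chromosome 7, 10 in HOXB on chromosome 17, 9 in HOXC on chromosome 12 and 9 in HOXD on chromosome 2. No expression value was used to choose them, and the antisense and readthrough genes of the clusters were left out. HK2 is an immortalized line from the proximal tubule of a normal kidney, 786-O comes from a primary clear cell renal cell carcinoma (ccRCC), and 786-M1A was derived from 786-O through lung metastases formed after injection in vivo. None of them received a treatment, and all were kept stably in Plasmax, a medium modelled on the nutrients of human serum. There were 3 libraries per line (TruSeq Stranded mRNA), and the methods describe replicate dishes of each line, so each group is 1 line and the p-values measure the spread between these libraries. The normal kidney is represented by HK2 alone.

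HOX genes encode transcription factors with a homeodomain, a DNA-binding fold, and closely related paralogs recur in the clusters. In the embryo they are switched on in the order in which they lie along the chromosome, the genes at the 3′ end early and towards the head, the genes at the 5′ end late and towards the tail. Repression by Polycomb proteins and activation by Trithorax proteins and retinoic acid keep this code afterwards, and adult cells hold the part of it that belongs to their place of origin. In the kidney the group 11 genes HOXA11, HOXC11 and HOXD11 are known for their role in the nephron progenitors.

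Between 30212291 and 45362428 counts fell on genes in a library, so that 3 counts, the floor used below, were worth 0.0647 to 0.0961 counts-per-million (CPM, on library sizes corrected by TMM factors). Libraries of the same line differed by more than sampling noise in all 9 pairs, with correlations of log2 CPM of 0.997 to 0.998. Of the renal epithelial markers, PAX8 (167 ± 5.80 CPM in HK2 against 164 ± 6.36 in 786-O and 183 ± 9.06 in 786-M1A, SD, n = 3), KRT8 and KRT18 were present in all lines. Of 12 proximal tubule markers, LRP2, SLC22A6 and SLC22A8 had 0 counts in every library, and 2 others reached the filter for testing. CA9, a marker of ccRCC, had 0 to 3 counts per library, whereas VEGFA rose from HK2 to 786-O by 3.07 ± 0.0508 (SE, adjusted p = 2.96e-22) on the log2 scale. PTPRC, CD3E, UMOD and AQP2, markers of blood cells and of other nephron segments, were at 0 in all libraries. The 13 markers of other cell types summed to 103 to 116 CPM in the HK2 libraries, 291 to 358 in those of 786-O and 336 to 337 in those of 786-M1A. COL1A1, a fibroblast collagen, stood at 53.5 ± 4.16, 291 ± 34.5 and 16.5 ± 1.29 CPM in that order, PDGFRB, a pericyte receptor, at 4.98 ± 0.598, 2.59 ± 0.365 and 282 ± 2.29.

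The homeobox, the stretch that codes for the homeodomain, was found in the transcripts of all 39 genes (GENCODE 44, GRCh38). It is shown for group 13, of which, by the rule given below, HOXB13 was expressed in HK2 only and HOXA13 in the cancer lines only. Each is 180 bases long, 5′ to 3′ on the coding strand, and capitals mark the bases at which the 4 members are not all the same.
HOXA13: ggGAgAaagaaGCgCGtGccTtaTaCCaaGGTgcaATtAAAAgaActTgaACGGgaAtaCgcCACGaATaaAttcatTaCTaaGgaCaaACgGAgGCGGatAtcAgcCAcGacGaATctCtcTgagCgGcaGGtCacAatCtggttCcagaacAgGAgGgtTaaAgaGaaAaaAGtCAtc
HOXB13: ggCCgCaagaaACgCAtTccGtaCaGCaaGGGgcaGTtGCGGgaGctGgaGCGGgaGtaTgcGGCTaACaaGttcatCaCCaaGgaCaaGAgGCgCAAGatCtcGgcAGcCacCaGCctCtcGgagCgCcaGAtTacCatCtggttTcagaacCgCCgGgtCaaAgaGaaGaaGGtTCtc
HOXC13: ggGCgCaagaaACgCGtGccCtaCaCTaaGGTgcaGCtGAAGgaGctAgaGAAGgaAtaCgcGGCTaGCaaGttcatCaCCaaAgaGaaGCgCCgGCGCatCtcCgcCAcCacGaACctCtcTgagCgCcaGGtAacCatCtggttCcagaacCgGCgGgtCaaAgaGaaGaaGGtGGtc
HOXD13: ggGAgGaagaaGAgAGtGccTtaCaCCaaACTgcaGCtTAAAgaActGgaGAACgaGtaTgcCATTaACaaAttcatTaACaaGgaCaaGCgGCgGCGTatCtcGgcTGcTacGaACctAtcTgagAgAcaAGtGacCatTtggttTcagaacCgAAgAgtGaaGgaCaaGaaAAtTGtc
In group 13 the identity went from 69.4% (HOXA13 and HOXB13) to 80.0% (HOXB13 and HOXC13), and over the 42 pairs within a group it went from 69.4% to 90.6%, with a median of 81.7% against 60.6% between genes of different groups. Despite this likeness, no stretch of 75 bases in the transcript of any member occurred in a transcript of another cluster, so reads of that length tell the paralogs apart.

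Which HOX genes were on was first described without a test. A gene was called expressed in a line with at least 1 CPM in each of its 3 libraries, silent with at most 3 counts in each, and low otherwise. By this rule 28 of 39 genes were expressed in HK2 against 29 in 786-O and 29 in 786-M1A, and 25 were expressed in all 3 lines. The genes expressed in all 3 lines lay in all 4 clusters and in paralog groups 1 to 11. HOXB1 and HOXC12 had 0 counts in every library, and HOXC5, HOXC11 and HOXD12 were low in all lines. The HOXC cluster was the least used, with 3 of 9 genes expressed in HK2 and 5 of 9 in each cancer line, against 10 of 11, 9 of 11 and 9 of 11 in HOXA. In these bulk samples a lower share of expressing cells and less RNA per cell cannot be told apart.

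**Figure D1:**
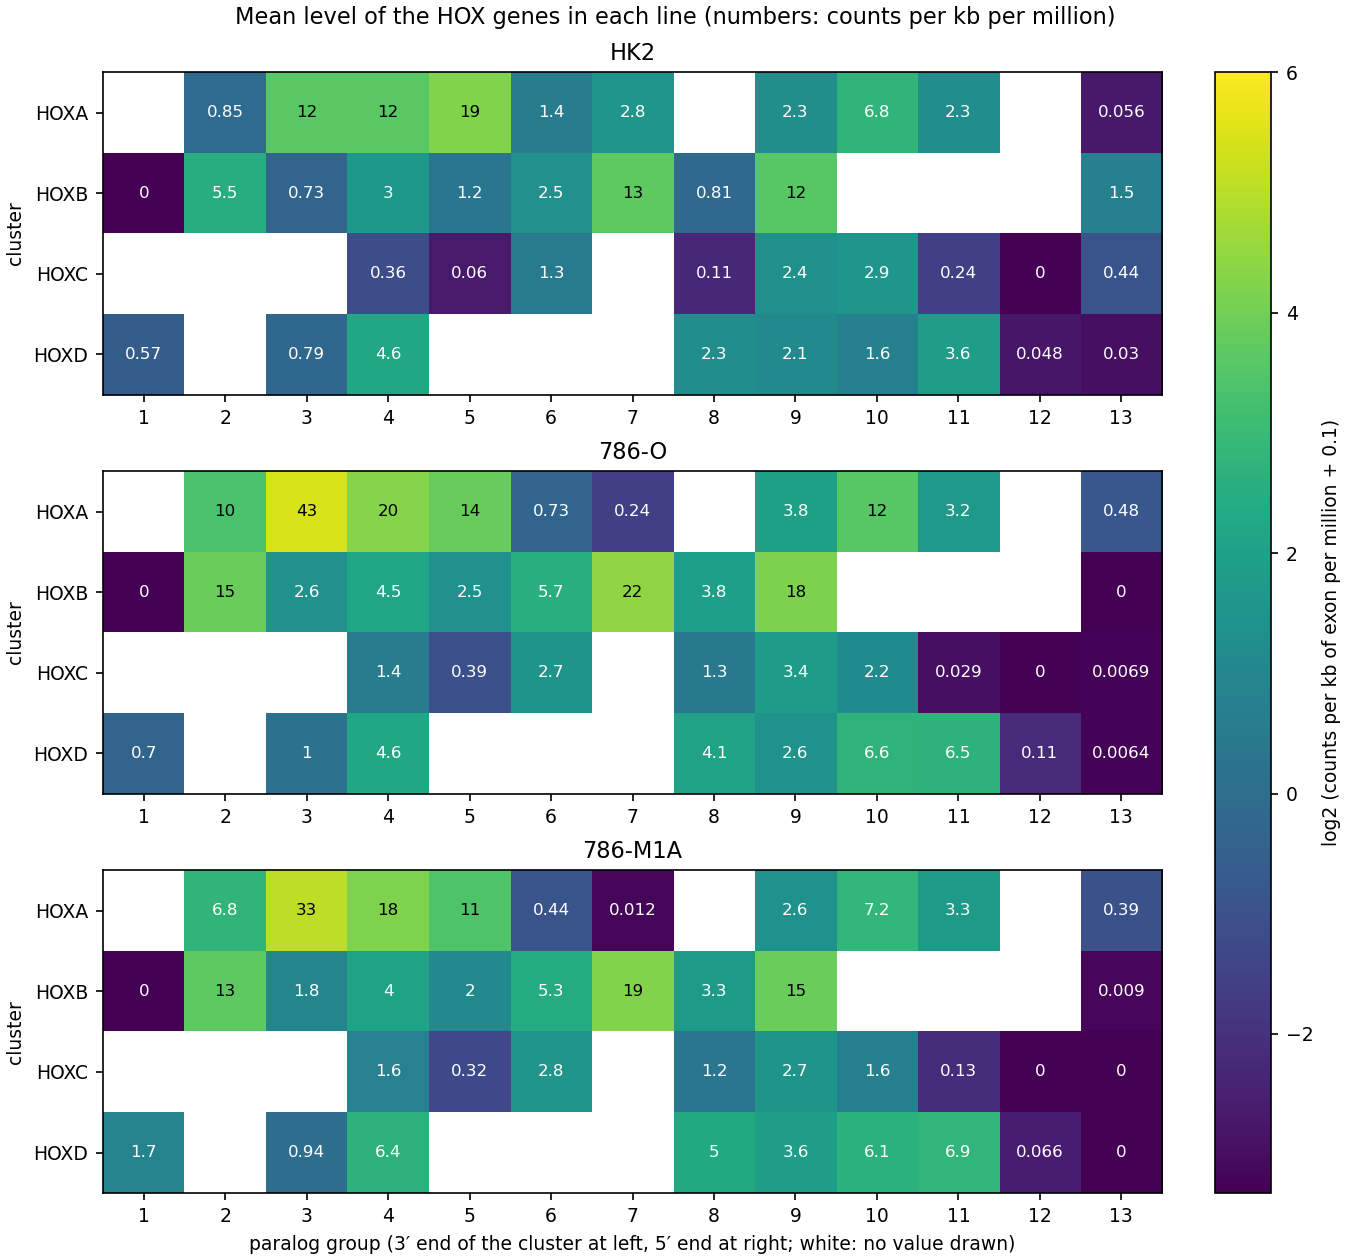
Mean level of 38 HOX genes in CPM per kb of exon (numbers; colour, log2 of the level + 0.1), with clusters as rows, paralog groups 1 to 13 as columns and 1 panel per line, white where no value is drawn. In all 3 panels the bright fields lie in HOXA and HOXB, HOXB1 and HOXC12 are at 0, and HOXA7 darkens from 2.78 in HK2 to 0.243 in 786-O and 0.0115 in 786-M1A.

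Per kb of exon, HOXA5 was the highest HOX gene in HK2 (18.9 ± 1.04 CPM per kb, SD, n = 3), followed by HOXB7 (12.9 ± 0.822), HOXA3 (12.2 ± 0.782), HOXA4 (12.1 ± 0.189) and HOXB9 (12.0 ± 0.640). Neighbours among the last 4 differed by less than their spread. In 786-O the order was led by HOXA3 (43.2 ± 3.15), HOXB7 (21.6 ± 0.490), HOXA4 (19.5 ± 0.758), HOXB9 (17.7 ± 0.438) and HOXB2 (14.5 ± 0.369), and in 786-M1A the same 5 genes led in the same order, from 33.4 ± 2.61 for HOXA3 to 12.7 ± 0.531 for HOXB2. HOXA5 stood at rank 6 in both. Over the 39 genes the per-kb levels of 786-O and 786-M1A had a Spearman's rho of 0.986, those of HK2 and 786-O 0.833 and those of HK2 and 786-M1A 0.827, as a description across genes, which share libraries and lengths.

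Summed over the 39 genes, HOX transcripts made up 305, 316 and 323 CPM in the HK2 libraries, 629.9, 587 and 594 in those of 786-O and 536, 482 and 494 in those of 786-M1A. The lines did not overlap, and both cancer lines lay above HK2. HOXA3 alone took 16.7% ± 0.676 of this sum in HK2 against 30.8% ± 1.06 in 786-O and 28.5% ± 0.637 in 786-M1A. Without HOXA3 the sums were 262 ± 6.08, 417 ± 9.48 and 360.3 ± 17.3 CPM. By cluster, on the per-kb scale, HOXA held 51.3% ± 0.121 of the HOX level in HK2 against 50.4% ± 0.667 in 786-O and 46.1% ± 0.572 in 786-M1A. HOXB held 30.7%, 32.7% and 32.5%, and HOXC 5.99%, 5.13% and 5.42%. The share of HOXD was 12.0% ± 0.0536 in HK2 and 11.8% ± 0.341 in 786-O, within the spread of each other, and 16.0% ± 0.313 in 786-M1A. By paralog group, group 3 rose from 10.5% ± 0.417 of the per-kb level in HK2 to 21.0% ± 0.675 in 786-O and 18.8% ± 0.418 in 786-M1A, and group 5 went from 15.4% ± 0.705 to 7.58% ± 0.289 and 6.71% ± 0.123, all as descriptions with no test. Group 13 at the 5′ end gave 1.58% in HK2 against 0.223% in 786-O and 0.210% in 786-M1A.

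**Figure D2:**
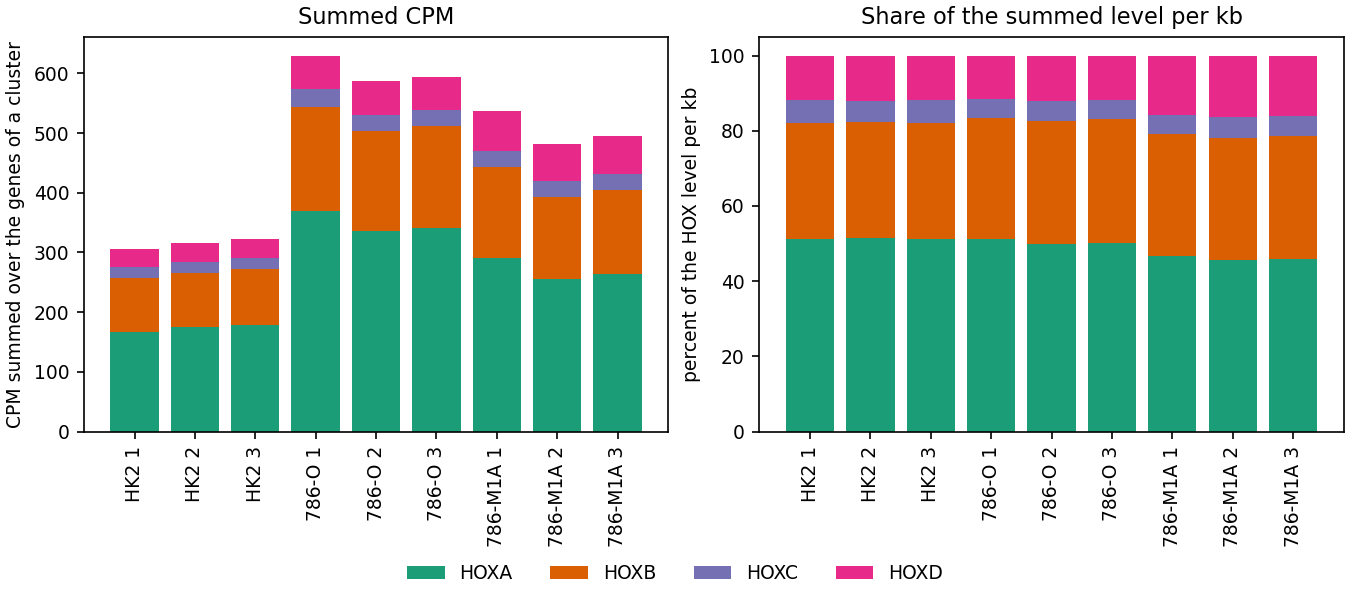
Left, CPM summed over the genes of each cluster in each of the 9 libraries, stacked by cluster. Right, the share of each cluster in the summed CPM per kb. The HK2 libraries reach 305 to 323 CPM and all cancer libraries at least 482 CPM, and the HOXD share stands near 12% in HK2 and 786-O and near 16% in 786-M1A.

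The 3 lines were then compared gene by gene with edgeR's quasi-likelihood test in a single fit of the 9 libraries, with the Benjamini-Hochberg adjustment made over all 12695 genes that averaged 50 counts or more. Of the 39 HOX genes, 31 passed this filter (10 in HOXA, 9 in HOXB, 5 in HOXC and 7 in HOXD). A gene was called at an adjusted p under 0.05. With 3 libraries against 3, an exact two-sided permutation test of 1 gene cannot give a p-value below 0.1. The comparisons of 786-O and of 786-M1A with HK2 share the HK2 libraries and are given side by side.

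In 786-O against HK2, the comparison of the primary cancer line with the tubule line, most HOX genes were higher in the cancer line. Of the 31 genes tested, 29 were called, where the background over all genes tested was 84.2%. Higher calls were 24 (77.4% of the members, against 41.7% of all genes), 12 of them at least 2-fold (all genes, 9.18%), and lower calls 5 (16.1%, against 42.5%), of which 2 at least 2-fold (all genes, 13.1%). The median log2 fold change of the members was 0.75, and 0.76 without HOXB13, whose fit rests on 0 counts in 786-O, beside -0.01 for all genes. The libraries of both lines did not overlap for 29 members (93.5%, against 85.5% of all genes). The higher genes came from every cluster, 7 of 10 in HOXA, 8 of 9 in HOXB, 4 of 5 in HOXC and 5 of 7 in HOXD, and the lower ones included HOXA5, HOXA7, HOXB13 and HOXC10. HOXD1 and HOXD4 were not called.

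In 786-M1A against HK2, the metastatic line against the tubule line, 27 of 31 members were called (87.1%, against 85.0% of all genes). Of these, 22 were higher (71.0%, against 42.0%), 13 of them at least 2-fold (all genes, 10.5%), and 5 lower (16.1%, against 42.9%), 2 of them at least 2-fold (all genes, 14.9%). The median was 0.77, and 0.78 without HOXB13, beside -0.01. The libraries did not overlap for 28 members (90.3%, against 85.0%). The lower genes included HOXA5, HOXA7, HOXB13 and HOXC10 as in 786-O, and HOXA9, HOXA10, HOXC9 and HOXD3 were not called.

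**Figure D3:**
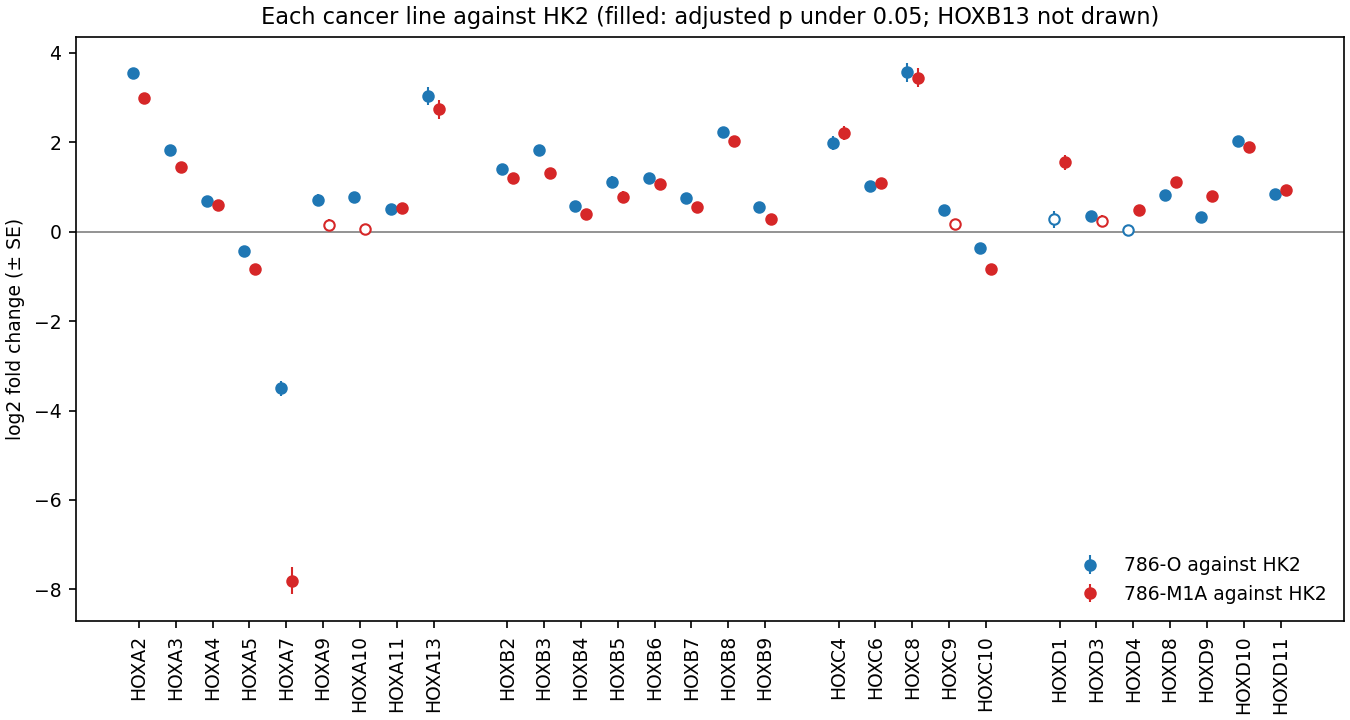
Log2 fold change ± SE of 29 tested HOX genes in 786-O (blue) and 786-M1A (red) against HK2, in the order of the clusters HOXA to HOXD and of the paralog groups. Filled points passed an adjusted p of 0.05. HOXB13 is not drawn because it had 0 counts in 786-O, and the 786-M1A point of HOXA7 rests on 3 counts. Most points lie above 0, up to 3.56 for HOXC8, and HOXA5, HOXA7 and HOXC10 lie below 0 in both.

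In 786-M1A against 786-O, the metastatic line against its parent, the share of HOX genes called was near the background, and the direction of the calls went by cluster. Called were 17 of 31 members (54.8%, against 56.2% of all genes). Lower calls were 13 (41.9%, against 27.1%) and higher calls 4 (12.9%, against 29.0%). All 4 genes called higher lay in HOXD (HOXD1, HOXD4, HOXD8 and HOXD9, of 7 tested), and no tested HOXD gene was called lower. In the other clusters no tested gene was called higher, and 6 of 10 in HOXA, 5 of 9 in HOXB and 2 of 5 in HOXC were called lower. HOXC11, which was under the filter, was called higher in the fit without a filter, at 2.12 on the log2 scale (adjusted p = 9.89e-06). Among the tested members, at least 2-fold were only HOXA7 (lower, all genes 4.52%) and HOXD1 (higher, all genes 2.03%). The median log2 fold change was -0.18 over the members (-0.19 without HOXB13), -0.39 in HOXA, -0.20 in HOXB, -0.12 in HOXC and 0.30 in HOXD, beside 0.01 over all genes. The libraries did not overlap for 20 of 31 members (64.5%, against 61.7%).

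**Figure D4:**
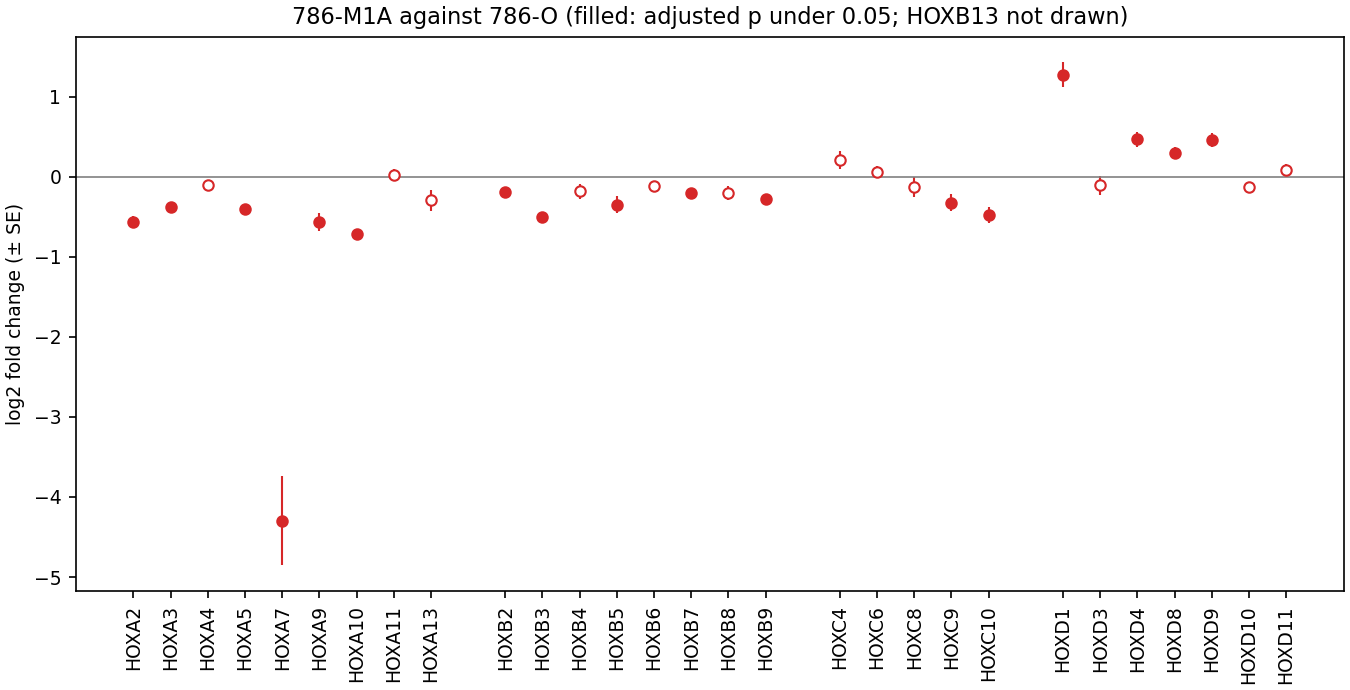
Log2 fold change ± SE of 29 tested HOX genes in 786-M1A against 786-O, in the order of the clusters and paralog groups. Filled points passed an adjusted p of 0.05, and HOXB13 is not drawn (0 counts in 786-O, 3 in 786-M1A). The filled points of HOXA, HOXB and HOXC lie below 0, with HOXA7 at -4.30, and the 4 filled points of HOXD lie above 0, with HOXD1 at 1.28.

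By position, the lower calls in 786-M1A against 786-O were spread along the clusters, with 4 of 11 tested genes in groups 1 to 4, 4 of 9 in groups 5 to 8 and 5 of 11 in groups 9 to 13, beside 27.1% of all genes. Against HK2, 786-O was higher in 8 of 11, 7 of 9 and 9 of 11, and 786-M1A in 9 of 11, 7 of 9 and 6 of 11 of these groups, beside 41.7% and 42.0% of all genes.

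Among the 9 genes whose state differed between lines, HOXA7 (chr7:27153716-27157936, minus strand, GRCh38), which acts in the thoracic skeleton, differed most between the cancer lines. It had 214, 260 and 315 counts in the HK2 libraries, 21, 20 and 32 in 786-O and 3, 0 and 0 in 786-M1A (6.85, 6.44 and 6.79 CPM in the HK2 libraries, 0.472, 0.529 and 0.754 in those of 786-O and 0.0835, 0 and 0 in those of 786-M1A). The 3 lines did not overlap, and the gene was expressed in HK2, was low in 786-O, and was silent in 786-M1A. Over the summed counts, HK2 exceeded 786-O by a ratio of 11.4 (95% counting interval 8.98 to 14.7) and 786-O exceeded 786-M1A by a ratio of 21.9 (95% counting interval 7.19 to 108). The fitted log2 fold changes were -3.51 ± 0.163 (SE, adjusted p = 1.62e-14) in 786-O against HK2 and -4.30 ± 0.557 (SE, adjusted p = 1.27e-06) in 786-M1A against 786-O. All 3 counts of 786-M1A were in its replicate 1, and without that library the second value was -7.55. The neighbour HOXA6 showed the same order at lower counts, with 68, 62 and 79 in HK2, 49, 27 and 42 in 786-O and 20, 24 and 19 in 786-M1A. With a mean of 43.3 counts it missed the filter, and in the fit without a filter its log2 fold changes were -0.89 (adjusted p = 3.49e-06) in 786-O against HK2 and -0.75 (adjusted p = 0.00626) in 786-M1A against 786-O.

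The 2 genes lie between expressed neighbours. HOXA5, on the 3′ side, was at 31.4, 34.6 and 31.6 CPM in the HK2 libraries, 24.6, 22.9 and 24.7 in those of 786-O and 19.4, 17.2 and 18.1 in those of 786-M1A, and HOXA9, on the 5′ side, at 6.53, 6.69 and 7.81 CPM in the HK2 libraries, 12.8, 10.9 and 11.0 in those of 786-O and 9.40, 7.83 and 6.32 in those of 786-M1A. The paralog HOXB7 was at 18.5, 21.0 and 19.2 CPM in the HK2 libraries, 33.7, 32.6 and 32.3 in those of 786-O and 31.2, 27.9 and 26.97 in those of 786-M1A and was higher in both cancer lines than in HK2. HOXA-AS3, a non-coding gene on the opposite strand that covers 74.8% of the HOXA7 transcript, had 62, 82 and 87 counts in HK2, 33, 35 and 28 in 786-O and 9, 11 and 9 in 786-M1A, which is the order of HOXA7. The strand setting of the counting is not given in the sources used here, and if strand was not used, reads from HOXA7 and HOXA-AS3 in the shared part cannot be told apart. HOXA-AS3 also covers 21.1% of the HOXA6 transcript, to which the same limit applies. The promoter window of HOXA7 (RefSeq, GRCh38.p14, chr7:27156626-27156925, minus strand, 250 bases before to 50 after the start) holds 31 CG dinucleotides, against a median of 14 over 35116 promoter windows. It is shown with that of HOXD1, which rose most of the tested members called in 786-M1A against 786-O (chr2:176188418-176188717, plus strand, 36 CG), both 5′ to 3′ on the strand of the gene, with capitals marking matches to the motifs searched.
HOXA7: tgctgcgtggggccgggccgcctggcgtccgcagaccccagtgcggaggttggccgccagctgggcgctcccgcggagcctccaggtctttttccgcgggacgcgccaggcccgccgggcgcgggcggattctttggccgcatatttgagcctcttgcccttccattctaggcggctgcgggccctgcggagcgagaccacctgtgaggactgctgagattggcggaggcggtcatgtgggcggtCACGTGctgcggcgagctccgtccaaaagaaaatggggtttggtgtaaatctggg
HOXD1: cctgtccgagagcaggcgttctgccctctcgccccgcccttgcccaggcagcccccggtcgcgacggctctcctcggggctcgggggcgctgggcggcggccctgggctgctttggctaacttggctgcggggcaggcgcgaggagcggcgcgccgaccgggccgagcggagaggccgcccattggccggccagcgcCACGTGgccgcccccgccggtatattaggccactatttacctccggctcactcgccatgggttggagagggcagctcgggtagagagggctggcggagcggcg
The 4 motifs, searched on both strands, were TGATNNAT (a site of PBX and HOX dimers), AGGTCA (the core bound by retinoic acid receptors), TATAAA and ACGTG (core of hypoxia response elements). The capitals in both windows are CACGTG, which counts as ACGTG on each strand, 5 bases before the start of HOXA7 and 53 bases before that of HOXD1. ACGTG occurred in 15 of the 27 windows of the 20 HOX genes in the table, TATAAA in 5, TGATNNAT in 3 and AGGTCA in 0, against 21.4%, 11.5%, 7.40% and 13.8% of all windows. HOXC4 and HOXC5 share a window. The HOX windows held 0 to 44 CG with a median of 22. A match in these letters is a description and not a binding site.

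**Figure D5:**
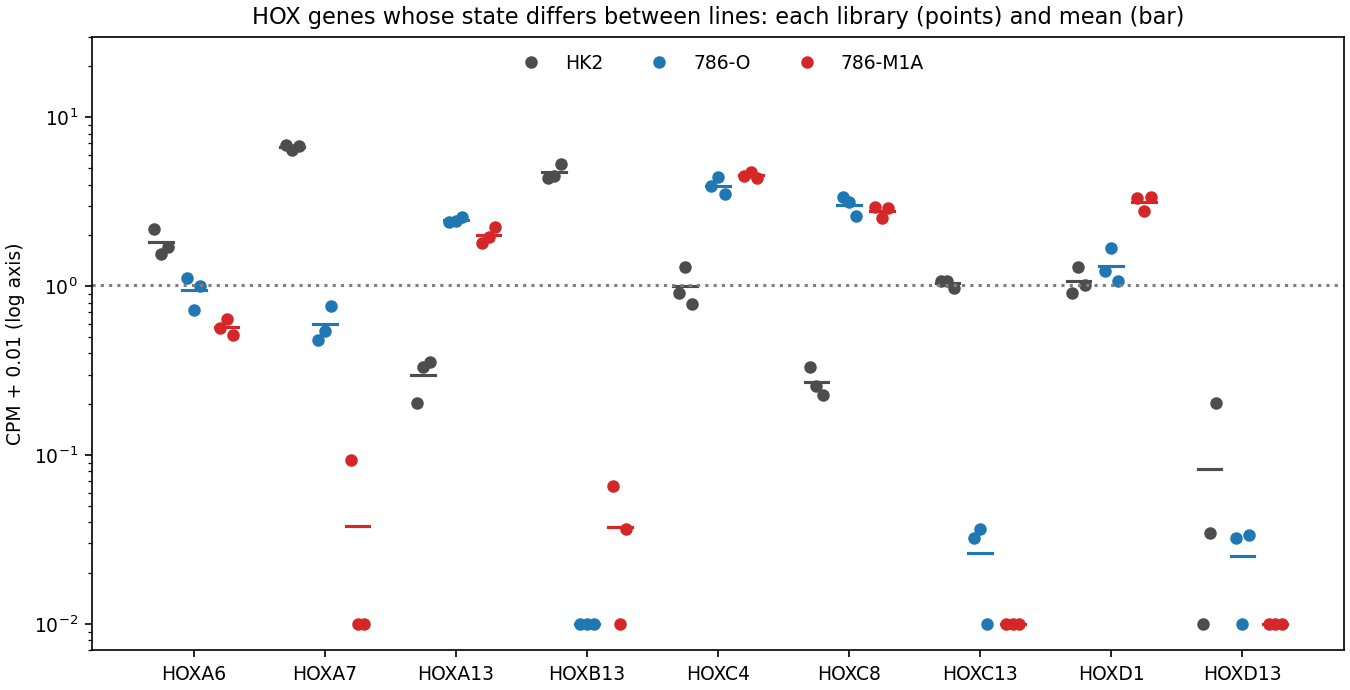
CPM + 0.01 on a log axis for the 9 HOX genes whose state differed between lines, with 1 point per library and a bar at the mean, HK2 in grey, 786-O in blue and 786-M1A in red; the dotted line marks 1 CPM. HOXA7, HOXB13 and HOXC13 have their HK2 points highest and their cancer points low or at 0, and HOXA13, HOXC4 and HOXC8 have their HK2 points lowest.

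In group 13, HOXB13 was expressed in HK2 only and HOXA13 in the cancer lines only, and HOXC13 and HOXD13 were expressed in no line. HOXB13 (chr17:48724763-48728750, minus strand), known from prostate and hindgut, had 136, 182 and 244 counts in HK2 (4.36, 4.51 and 5.26 CPM in HK2), 0 in each 786-O library and 2, 0 and 1 in 786-M1A. It was at least 198-fold higher in HK2 than in 786-O, on a floor of 3 counts over the group, and the ratio of HK2 to 786-M1A was 178 (95% counting interval 60.6 to 866). HOXC13, which acts in hair and nails, was under the filter, with 33, 43 and 45 counts in HK2, 1, 1 and 0 in 786-O and 0 in each 786-M1A library. At 1.06, 1.06 and 0.971 CPM in the HK2 libraries, it missed the limit for expressed narrowly, in replicate 3 only. The ratio of HK2 to 786-O was 64.0 (95% counting interval 17.3 to 534), and HK2 was at least 38.3-fold above 786-M1A. HOXD13, which shapes the digits, had 0, 1 and 9 counts in HK2, 1, 0 and 1 in 786-O and 0 in 786-M1A, close to the floor, and 9 of its 10 HK2 counts were in 1 library. HOXA13, which acts in the distal limb and the genital tract, went the other way. It had 6, 13 and 16 counts in HK2, 106, 91 and 108 in 786-O and 64, 75 and 85 in 786-M1A (0.192, 0.322 and 0.345 CPM in the HK2 libraries, 2.38, 2.41 and 2.55 in those of 786-O and 1.78, 1.96 and 2.25 in those of 786-M1A). Every cancer library lay above every HK2 library, with a log2 fold change of 3.03 ± 0.200 (SE, adjusted p = 7.38e-12) in 786-O and 2.74 ± 0.213 (SE, adjusted p = 1.01e-10) in 786-M1A, and 786-M1A against 786-O was not called (adjusted p = 0.0685).

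In the HOXA cluster, HOXA2 and HOXA3 near the 3′ end were among the genes that differed most between HK2 and the cancer lines. HOXA2, which gives the hyoid arch its identity, was at 1.79, 1.76 and 2.39 CPM in the HK2 libraries, 24.3, 22.4 and 23.3 in those of 786-O and 17.3, 14.6 and 15.8 in those of 786-M1A. No libraries overlapped between lines, and the log2 fold changes were 3.53 ± 0.0984 (SE, adjusted p = 2.12e-18) in 786-O against HK2, 2.98 ± 0.104 (SE, adjusted p = 9.51e-17) in 786-M1A against HK2 and -0.56 ± 0.0707 (SE, adjusted p = 9.18e-07) in 786-M1A against 786-O. HOXA3, needed for the thymus and parathyroids, was at 50.03, 51.2 and 56.4 CPM in the HK2 libraries, 202, 177 and 179.6 in those of 786-O and 157, 136 and 139 in those of 786-M1A and had the same order. It changed by 1.82 ± 0.0658 (SE, adjusted p = 7.23e-13), 1.45 ± 0.0659 (SE, adjusted p = 1.15e-11) and -0.37 ± 0.0620 (SE, adjusted p = 0.000121) in the same 3 comparisons. HOXA4 was at 20.6, 20.8 and 21.2 CPM in the HK2 libraries, 35.0, 33.6 and 32.4 in those of 786-O and 34.0, 29.3 and 31.0 in those of 786-M1A, higher in both cancer lines, and 786-M1A and 786-O overlapped. HOXA5, known from lung development, fell in both steps, with log2 fold changes of -0.43 ± 0.0560 (SE, adjusted p = 3.53e-07) in 786-O against HK2 and -0.40 ± 0.0596 (SE, adjusted p = 7.15e-06) in 786-M1A against 786-O.

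In the 5′ part of HOXA, 2 genes were highest in 786-O and were not called between 786-M1A and HK2. HOXA9, a gene of blood progenitors and leukaemia, changed by 0.71 ± 0.118 (SE, adjusted p = 4.02e-05) in 786-O against HK2 and -0.56 ± 0.117 (SE, adjusted p = 0.000752) in 786-M1A against 786-O, and in 786-M1A against HK2 it stood at 0.15 with a 95% interval that includes 0 (adjusted p = 0.273), although it was called without 786-M1A replicate 3 (adjusted p = 0.0201). HOXA10, which patterns the uterus, was at 23.3, 27.1 and 25.4 CPM in the HK2 libraries, 44.8, 42.5 and 42.9 in those of 786-O and 28.0, 24.9 and 26.7 in those of 786-M1A. The 786-O libraries were the highest, and those of HK2 and 786-M1A overlapped. Its log2 fold changes were 0.78 ± 0.0558 (SE, adjusted p = 3.02e-11), 0.07 ± 0.0585 (SE, adjusted p = 0.289) and -0.71 ± 0.0557 (SE, adjusted p = 7.26e-10) in 786-O against HK2, 786-M1A against HK2 and 786-M1A against 786-O. HOXA10-AS on the opposite strand covers 23.9% of the HOXA10 transcript and was not called in the last comparison (adjusted p = 0.558). HOXA11, one of the nephron progenitor genes, was at 5.70, 6.07 and 6.26 CPM in the HK2 libraries, 8.38, 8.84 and 8.53 in those of 786-O and 7.96, 9.11 and 9.02 in those of 786-M1A. It was higher in both cancer lines, by 0.51 and 0.53 on the log2 scale, and 786-M1A and 786-O overlapped, at 0.02 ± 0.0757 (SE, adjusted p = 0.838). HOXA11-AS covers 27.2% of its transcript.

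In the HOXB cluster, 8 of the 9 tested genes were higher in both cancer lines than in HK2, HOXB13 being the other. HOXB2, which acts in the hindbrain, was at 13.1, 14.3 and 13.3 CPM in the HK2 libraries, 34.7, 35.9 and 36.4 in those of 786-O and 31.8, 29.7 and 32.0 in those of 786-M1A. HOXB3 was at 5.99, 5.08 and 5.20 CPM in the HK2 libraries, 19.4, 19.1 and 18.5 in those of 786-O and 13.8, 13.4 and 12.98 in those of 786-M1A and HOXB4, which supports blood stem cells, at 5.38, 6.46 and 6.41 CPM in the HK2 libraries, 9.85, 7.49 and 9.71 in those of 786-O and 8.18, 8.12 and 7.69 in those of 786-M1A. HOXB2 and HOXB3 were highest in 786-O and intermediate in 786-M1A without overlap, and HOXB4 overlapped between the cancer lines. HOXB5, which acts in the enteric nervous system, was at 2.18, 1.98 and 2.29 CPM in the HK2 libraries, 5.01, 4.08 and 4.88 in those of 786-O and 4.01, 3.24 and 3.81 in those of 786-M1A. HOXB6 was at 6.63, 6.44 and 6.51 CPM in the HK2 libraries, 14.7, 15.7 and 14.3 in those of 786-O and 14.5, 13.1 and 13.5 in those of 786-M1A. For HOXB8, which holds myeloid cells in a progenitor state, the values were 2.02, 1.76 and 2.07 CPM in the HK2 libraries, 10.1, 8.21 and 8.86 in those of 786-O and 8.32, 7.29 and 8.17 in those of 786-M1A. Among the genes of the cluster that were higher than in HK2, HOXB8 had the largest difference, 2.22 ± 0.111 (SE, adjusted p = 5.50e-14) in 786-O and 2.02 ± 0.114 (SE, adjusted p = 4.34e-13) in 786-M1A on the log2 scale. HOXB9, which patterns the thoracic region, was at 31.1, 29.3 and 32.6 CPM in the HK2 libraries, 46.7, 44.4 and 45.8 in those of 786-O and 40.4, 35.4 and 37.2 in those of 786-M1A, in the order HK2, 786-M1A, 786-O without overlap.

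Against HK2, HOXB2 differed by 1.39 in 786-O and 1.20 in 786-M1A, HOXB3 by 1.82 and 1.31, HOXB6 by 1.19 and 1.07, and HOXB5 by 1.12 and 0.77 (log2). The smaller differences were those of HOXB4 (0.56 and 0.38), HOXB7 (0.75 and 0.55) and HOXB9 (0.56 and 0.28), and all of these passed the test. In 786-M1A against 786-O, HOXB3 fell by 0.50 on the log2 scale (adjusted p = 6.36e-07), and HOXB2, HOXB5, HOXB7 and HOXB9 had log2 fold changes of -0.19, -0.35, -0.20 and -0.28, all called. HOXB5 was no longer called without 786-M1A replicate 2 (adjusted p = 0.0738) or without 786-O replicate 1 (adjusted p = 0.0536). HOXB4, HOXB6 and HOXB8 were not called, at -0.18, -0.12 and -0.20 (adjusted p = 0.119, 0.128 and 0.0595). HOXB4 was called without 786-O replicate 2, at -0.29 (adjusted p = 0.00906), and HOXB8 was called with a replicate block (adjusted p = 0.0388).

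In the HOXC cluster, 4 of the 5 tested genes were higher in 786-O than in HK2 and 3 were higher in 786-M1A. HOXC10 was lower in both cancer lines. HOXC8, known from the spinal cord and the thoracic skeleton, had 10 counts in each HK2 library and was at 0.320, 0.248 and 0.216 CPM in the HK2 libraries, 3.35, 3.15 and 2.59 in those of 786-O and 2.92, 2.53 and 2.91 in those of 786-M1A. The cancer lines overlapped with each other and not with HK2, from which they differed by 3.56 ± 0.205 (SE, adjusted p = 6.94e-13) and 3.44 ± 0.212 (SE, adjusted p = 1.94e-12). HOXC4, at 0.897, 1.29 and 0.776 CPM in the HK2 libraries, 3.89, 4.39 and 3.49 in those of 786-O and 4.51, 4.73 and 4.36 in those of 786-M1A, differed from HK2 by 1.99 ± 0.156 (SE, adjusted p = 1.34e-10) in 786-O and 2.20 ± 0.154 (SE, adjusted p = 1.71e-11) in 786-M1A. HOXC6 was at 4.16, 4.26 and 5.18 CPM in the HK2 libraries, 9.53, 9.16 and 9.31 in those of 786-O and 10.02, 9.69 and 9.60 in those of 786-M1A, close to 2-fold higher in both cancer lines. HOXC9, a gene of the thoracic spinal cord, was at 4.04, 3.57 and 4.59 CPM in the HK2 libraries, 6.18, 5.22 and 5.68 in those of 786-O and 4.90, 4.57 and 4.26 in those of 786-M1A. It was higher in 786-O than in HK2 and in 786-M1A, and 786-M1A and HK2 overlapped. Its call in 786-M1A against 786-O at -0.32 ± 0.103 (SE, adjusted p = 0.0119) was lost without 786-M1A replicate 3 (adjusted p = 0.0561) or 786-O replicate 1 (adjusted p = 0.0651). HOXC10, which acts in the lumbar spinal cord, was at 7.18, 6.59 and 6.73 CPM in the HK2 libraries, 5.64, 4.87 and 5.28 in those of 786-O and 3.59, 3.73 and 4.04 in those of 786-M1A. It fell at each step without overlap, with log2 fold changes of -0.37 ± 0.0858 (SE, adjusted p = 0.000509) in 786-O against HK2 and -0.48 ± 0.0955 (SE, adjusted p = 0.00024) in 786-M1A against 786-O.

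Among the untested HOXC genes, HOXC11, the third nephron progenitor gene of group 11, had 21, 37 and 34 counts in HK2, 6, 3 and 3 in 786-O and 9, 19 and 20 in 786-M1A. It was lowest in 786-O without overlap. In the fit without a filter on low counts, 786-M1A was above 786-O by 2.12 ± 0.444 on the log2 scale (SE, adjusted p = 9.89e-06) and 786-O below HK2, at -2.96 ± 0.384 (SE). HOXC5 had 1, 7 and 4 counts in HK2, 29, 23 and 26 in 786-O and 17, 22 and 19 in 786-M1A, with the cancer lines above HK2. In the same fit 38.0% of 21241 genes were called in 786-M1A against 786-O, 63.8% in 786-O against HK2 and 64.7% in 786-M1A against HK2.

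In the HOXD cluster, no tested gene was called lower in a cancer line. HOXD1 (chr2:176188668-176190907, plus strand), at its 3′ end, had 28, 52 and 47 counts in HK2, 54, 63 and 45 in 786-O and 120, 107 and 127 in 786-M1A (0.897, 1.29 and 1.014 CPM in the HK2 libraries, 1.21, 1.67 and 1.06 in those of 786-O and 3.34, 2.79 and 3.36 in those of 786-M1A). HK2 and 786-O overlapped, and every 786-M1A library lay above them. The log2 fold change was 1.28 ± 0.158 (SE, adjusted p = 6.45e-07) in 786-M1A against 786-O, 1.55 ± 0.167 (SE, adjusted p = 2.09e-08) in 786-M1A against HK2 and 0.27 ± 0.196 (SE, adjusted p = 0.199) in 786-O against HK2. HOXD4, which patterns the neck vertebrae, was at 5.22, 4.95 and 5.39 CPM in the HK2 libraries, 5.62, 4.92 and 5.28 in those of 786-O and 7.96, 7.44 and 6.56 in those of 786-M1A and had the same arrangement, with 0.47 ± 0.0900 (SE, adjusted p = 0.000156) in 786-M1A against 786-O. HOXD8 was at 5.25, 6.29 and 6.54 CPM in the HK2 libraries, 10.8, 10.6 and 10.6 in those of 786-O and 14.1, 12.4 and 12.95 in those of 786-M1A and HOXD9 at 4.16, 3.69 and 3.99 CPM in the HK2 libraries, 5.39, 4.61 and 4.81 in those of 786-O and 6.98, 6.63 and 6.82 in those of 786-M1A. Both rose at each step without overlap between lines, HOXD8 by 0.81 ± 0.0823 (SE, adjusted p = 9.43e-09) and 0.30 ± 0.0741 (SE, adjusted p = 0.00174), HOXD9 by 0.33 ± 0.0950 (SE, adjusted p = 0.00315) and 0.46 ± 0.0872 (SE, adjusted p = 0.000133), for 786-O against HK2 and 786-M1A against 786-O.

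The remaining HOXD genes were not called between the cancer lines. HOXD3 was at 2.72, 3.07 and 3.00 CPM in the HK2 libraries, 3.42, 3.63 and 4.19 in those of 786-O and 4.03, 3.19 and 3.25 in those of 786-M1A, with -0.10 ± 0.116 (SE, adjusted p = 0.462), a 95% interval of -0.35 to 0.14. HOXD10, which acts in the hindlimb and lumbar spinal cord, was at 4.004, 4.06 and 4.10 CPM in the HK2 libraries, 16.5, 16.3 and 16.7 in those of 786-O and 15.5, 15.3 and 14.8 in those of 786-M1A. It was higher in both cancer lines than in HK2, by 2.02 ± 0.0696 (SE, adjusted p = 8.64e-17) in 786-O and 1.90 ± 0.0710 (SE, adjusted p = 3.04e-16) in 786-M1A. Its 786-M1A libraries lay below those of 786-O without overlap, at -0.12 ± 0.0573 (SE, adjusted p = 0.0792). HOXD11, the partner of HOXA11 in the nephron progenitors, was at 7.34, 8.37 and 7.14 CPM in the HK2 libraries, 13.4, 15.01 and 12.7 in those of 786-O and 14.4, 14.1 and 14.99 in those of 786-M1A, higher than in HK2 by 0.84 and 0.93 (log2), and 786-M1A and 786-O overlapped, at 0.09 ± 0.0725 (SE, adjusted p = 0.321). HOXD10 covers 26.5% of the HOXD11 transcript on the same strand, so their counts are not fully separate. HOXD12 had 1 to 16 counts per library.

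The non-coding genes of the clusters were read beside their coding neighbours. Of 25 listed, 23 were in the table and 5 were tested. In 786-M1A against 786-O, 3 rose, 1 fell and 1 was not called (80.0% called, against 56.2% of all genes). HAGLR, which starts beside HOXD1 and runs away from it on the other strand, was at 15.7, 15.6 and 17.2 CPM in the HK2 libraries, 23.3, 23.3 and 24.5 in those of 786-O and 44.3, 43.3 and 43.5 in those of 786-M1A. It rose at each step without overlap, by 0.55 ± 0.0538 (SE, adjusted p = 5.21e-09) in 786-O against HK2 and 0.88 ± 0.0491 (SE, adjusted p = 2.62e-12) in 786-M1A against 786-O. HOXD-AS2 rose by 0.47 ± 0.120 (SE, adjusted p = 0.00243) in the latter. HAGLR covers 7.69% of the HOXD1 transcript and HOXD-AS2 24.5% of that of HOXD8. Among the genes of the deposited table, none has an annotated exon that overlaps the HOXD4 or HOXD9 transcript. At the 3′ end of HOXA, HOTAIRM1 had log2 fold changes of 1.45 ± 0.0948 (SE, adjusted p = 7.49e-11) in 786-O against HK2 and 0.26 ± 0.0811 (SE, adjusted p = 0.0123) in 786-M1A against 786-O, and HOXA-AS2 of 0.59 ± 0.0925 (SE, adjusted p = 5.24e-06) and -0.23 ± 0.0894 (SE, adjusted p = 0.0337). HOXA10-AS was higher in 786-O than in HK2, by 0.75 ± 0.166 (SE, adjusted p = 0.000321). HOTAIR had 0 to 11 counts per library.

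The genes that flank the clusters had calls in both directions. Of 20 tested, 3 were higher and 10 lower in 786-M1A against 786-O (65.0% called, against 56.2% of all genes, median -0.09), and 7 were higher and 9 lower in 786-O against HK2 (80.0%, against 84.2%, median -0.05). SNX10, beyond the 3′ side of HOXA, fell by 1.48 ± 0.0510 (SE, adjusted p = 9.89e-16) in 786-M1A against 786-O, and SKAP1, beside HOXB, rose by 1.43 ± 0.0831 (SE, adjusted p = 5.37e-12). Also named by size were SMUG1 and CALCOCO1 (-1.14 and -1.78 in 786-O against HK2) and ATP5MC3 (-0.46 in 786-M1A against 786-O). SKAP2, on the same side of HOXA as SNX10, was at 132, 126 and 130.0 CPM in the HK2 libraries, 239, 242 and 251 in those of 786-O and 193, 191 and 196 in those of 786-M1A and had the order of HOXA3, with 0.92 ± 0.0360 (SE, adjusted p = 8.65e-16) in 786-O against HK2 and -0.34 ± 0.0354 (SE, adjusted p = 6.73e-08) in 786-M1A against 786-O.

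HOX proteins bind DNA with cofactors of the TALE class (PBX, MEIS and PKNOX). Of 7 tested genes of this class, 2 were higher and 2 lower in 786-M1A against 786-O (57.1% called, against 56.2% of all genes), and 2 higher and 3 lower in 786-O against HK2 (71.4%, against 84.2%). MEIS3 was at 14.1, 13.9 and 14.2 CPM in the HK2 libraries, 0.270, 0.159 and 0.330 in those of 786-O and 0.111, 0.261 and 0.106 in those of 786-M1A, nearly absent from both cancer lines, and fell by 5.76 ± 0.150 (SE, adjusted p = 6.22e-19) in 786-O against HK2. PBX2 fell by 1.14 ± 0.0431 (SE, adjusted p = 4.47e-16) in the same comparison, and MEIS2 was at 17.6, 17.9 and 17.7 CPM in the HK2 libraries, 34.0, 37.5 and 35.7 in those of 786-O and 23.8, 24.7 and 25.5 in those of 786-M1A, highest in 786-O. PBX4 rose by 0.43 ± 0.142 (SE, adjusted p = 0.014) in 786-M1A against 786-O.

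Of 27 Polycomb complex genes, which keep HOX genes off, 4 were higher and 11 lower in 786-M1A against 786-O (median -0.10), and 10 higher and 13 lower in 786-O against HK2 (median -0.10), at shares of calls near the background. EZH1, a methyltransferase of histone H3, fell by 0.68 ± 0.0671 (SE, adjusted p = 2.18e-08) in 786-M1A against 786-O, and PCGF2 fell by 0.63 ± 0.0538 (SE, adjusted p = 2.88e-09). EZH2, the paralog of EZH1, at higher levels (85.3 CPM in 786-O and 118 in 786-M1A), rose by 0.47 ± 0.0383 (SE, adjusted p = 1.30e-09). SUZ12 fell by 0.53 ± 0.0399 (SE, adjusted p = 3.80e-10), and EED was not called (adjusted p = 0.671). PHF19, an accessory subunit that binds methylated H3, was at 145, 141 and 142 CPM in the HK2 libraries, 77.6, 76.5 and 74.8 in those of 786-O and 146, 140.0 and 139 in those of 786-M1A, lowest in 786-O, and rose by 0.89 ± 0.0378 (SE, adjusted p = 2.93e-14) in 786-M1A against 786-O. BMI1 rose by 1.62 ± 0.192 (SE, adjusted p = 9.91e-08) and AEBP2 fell by 0.94 ± 0.0423 (SE, adjusted p = 1.01e-14) in 786-O against HK2. Of 22 Trithorax and H3K27 demethylase genes, which act against Polycomb, 2 were higher and 8 lower in 786-M1A against 786-O (45.5% called, against 56.2% of all genes), and 9 higher and 6 lower in 786-O against HK2 (68.2%, against 84.2%). KDM6B, an H3K27 demethylase, was at 23.3, 21.1 and 24.8 CPM in the HK2 libraries, 15.2, 16.0 and 14.8 in those of 786-O and 10.3, 10.3 and 9.94 in those of 786-M1A and fell at each step, with log2 fold changes of -0.59 ± 0.0629 (SE, adjusted p = 2.08e-08) and -0.59 ± 0.0698 (SE, adjusted p = 3.57e-07) in 786-O against HK2 and 786-M1A against 786-O. KDM6A, the other demethylase, and RBBP5 had log2 fold changes of -0.64 ± 0.0517 (SE, adjusted p = 2.35e-10) and -0.65 ± 0.0519 (SE, adjusted p = 2.08e-10) in 786-O against HK2, and MLLT3 fell by 0.44 ± 0.0547 (SE, adjusted p = 7.64e-07) in 786-M1A against 786-O. WDR5, a core subunit of the MLL complexes, rose by 0.34 ± 0.0354 (SE, adjusted p = 4.47e-08) in 786-M1A against 786-O.

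Of 11 tested genes of the retinoic acid pathway, which switches on the 3′ HOX genes in the embryo, 4 were higher and 5 lower in 786-M1A against 786-O (81.8% called, against 56.2% of all genes), and 6 higher and 5 lower in 786-O against HK2 (100% called, against 84.2%). ALDH1A1, a gene among those whose products make retinoic acid, had 1, 1 and 2 counts in HK2. It was at 339, 334 and 367 CPM in the 786-O and 196, 194 and 195 CPM in the 786-M1A libraries. Its relatives with the same product are not reported here, so its level alone does not show whether a line can make retinoic acid. CYP26B1, which degrades retinoic acid, was at 0.673, 0.421 and 0.496 CPM in the HK2 libraries, 2.99, 3.39 and 3.39 in those of 786-O and 0.668, 0.470 and 0.555 in those of 786-M1A, highest in 786-O. The related CYP26A1 and CYP26C1 went the other way, with 34, 67 and 71 and with 68, 84 and 94 counts in HK2. Both had 0 counts in each cancer library. STRA6, the receptor that takes up retinol, was at 17.7, 17.7 and 18.2 CPM in the HK2 libraries, 6.70, 5.00 and 4.97 in those of 786-O and 0.556, 0.548 and 0.634 in those of 786-M1A and fell at each step, with log2 fold changes of -1.68 ± 0.0876 (SE, adjusted p = 1.20e-13) and -3.26 ± 0.165 (SE, adjusted p = 5.58e-13). CRABP2, a binding protein of retinoic acid, was at 30.5, 32.9 and 30.6 CPM in the HK2 libraries, 1.80, 1.64 and 1.67 in those of 786-O and 3.28, 3.24 and 3.01 in those of 786-M1A, highest in HK2.

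Of 13 CDX, ParaHox and related homeobox genes, 2 were tested, and both were lower in the cancer lines than in HK2. Lower calls over all genes were 42.5% in 786-O and 42.9% in 786-M1A. MNX1 had 291, 369 and 437 counts in HK2 and 0 in each cancer library, and GBX2 was at 6.76, 6.71 and 7.68 CPM in the HK2 libraries, 1.62, 1.40 and 1.41 in those of 786-O and 0.695, 0.548 and 0.344 in those of 786-M1A, falling at each step. Of 6 tested partners of the group 11 genes in kidney development, 2 were higher and 4 lower in 786-M1A against 786-O (100% called, against 56.2% of all genes), and 3 higher and 2 lower in 786-O against HK2 (83.3%, against 84.2%). PAX2 was at 3.46, 2.95 and 4.03 CPM in the HK2 libraries, 26.0, 23.6 and 25.2 in those of 786-O and 12.1, 10.3 and 9.73 in those of 786-M1A, highest in 786-O, and SALL1 followed the same order with 1.58 ± 0.0517 (SE, adjusted p = 3.68e-17) and -0.57 ± 0.0489 (SE, adjusted p = 2.79e-09). WT1 had 0 counts in each HK2 library and was at 34.2 ± 0.393 CPM in 786-O and at 45.9 ± 1.03 in 786-M1A (SD, n = 3). LHX1 fell at each step, with log2 fold changes of -1.43 ± 0.0514 (SE, adjusted p = 1.89e-16) and -0.73 ± 0.0568 (SE, adjusted p = 6.77e-10).

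Of the marker lists, 2 proximal tubule genes were tested, of which ANPEP was higher and GGT1 lower in 786-O than in HK2 (6.01 and -0.42 on the log2 scale). All 9 renal epithelial markers were tested, with 2 higher and 6 lower in 786-O against HK2 (88.9% called, against 84.2% of all genes). In 786-M1A against 786-O, 4 were higher and 5 lower (100% called, against 56.2% of all genes). EPCAM, an epithelial adhesion gene, had 2154, 3276 and 3313 counts in HK2, 24, 23 and 24 in 786-O and 336, 351 and 307 in 786-M1A. CDH1, which encodes E-cadherin, had 146, 173 and 212, 1, 7 and 3, and 1, 0 and 0 in the same order, and CDH16 fell by 1.32 on the log2 scale in 786-M1A against 786-O. Of 6 tested ccRCC markers, 5 were higher in each of the 3 comparisons, among them EGLN3 and CD70 (4.87 and 2.45 in 786-O against HK2). In each comparison 83.3% of this list was called. Over all genes it was 84.2% in 786-O against HK2, 85.0% in 786-M1A against HK2 and 56.2% in 786-M1A against 786-O. Higher calls over all genes were 41.7%, 42.0% and 29.0% in the same order. Of the 3 tested markers of other cell types, COL1A1 fell by 4.14 ± 0.104 (SE, adjusted p = 1.98e-10) and PDGFRB rose by 6.76 ± 0.0703 (SE, adjusted p = 3.24e-24) in 786-M1A against 786-O. Their part in the HOX results was not tested.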

How the data were processed

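The authors deposited raw counts per gene for 9 libraries (TruSeq Stranded mRNA, NextSeq 500), made with featureCounts of Rsubread on hg38 (GRCh38), with rows of 0 counts kept. The annotation release and the strand setting are not given in the sources used here. Groups came from the sample titles, and 0 columns belonged to no sample. A few genes and 1 sequence are not reported here. The members and gene lists were chosen with earlier results of these data known. Library sizes were corrected by TMM, and the 12695 genes averaging 50 counts or more per library were tested with edgeR 4.0.16 in R 4.3.3 (glmQLFit robust, glmQLFTest, 1 coefficient per line, Benjamini-Hochberg, threshold 0.05). Standard errors derive from the fold change and its F statistic. The study's methods use limma on VSN values, and the count model stands in for it because counts were deposited. For single genes, log2 CPM (prior count 2) also went into an exact permutation test, two-sided. Levels between genes were compared per kb of the exon union of GENCODE 44. Symbols matched 27745 of 28395 rows through RefSeq. Ratios of low counts carry exact 95% intervals, which cover counting error only.

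Named genes were the HOX members, except as said above, and of each of 12 gene lists up to 3 with the largest fold among those called in 786-M1A against 786-O and in 786-O against HK2, with every tested non-coding cluster gene. Also given, beside related genes, were CYP26A1, CYP26C1, EED, EZH2 and SUZ12. Alternatives were DESeq2 1.42.0, limma-trend (limma 3.58.1), RLE and upper-quartile factors, no filter or at least 10 counts in every library, only the 2 lines compared, a replicate block, leaving out each library, other limits for silent (0 or 10 counts) and expressed (0.5 CPM), and other lengths. On simulated counts of 12695 genes for 786-M1A against 786-O, 199 of 200 changed genes and 8 unchanged genes were called. The changed genes were set at log2 fold changes of 0.5 or more, above those of most HOX genes called in this comparison. In the data 56.2% of all genes were called, so these rates do not carry over to it. Tables and figures used Python 3.11.15, pandas 2.3.3, scipy 1.17.1 and matplotlib 3.10.9.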

Additional observations from a re-analysis of the deposited data

Results flagged for a closer look

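For HOXA7 the effect against HK2 differed between the cancer lines, by -4.30 on the log2 scale (786-M1A minus 786-O, SE 0.557, edgeR adjusted p = 1.27e-06 for 786-M1A against 786-O, which is the test of this difference). The 786-M1A side rests on 3 counts, all in replicate 1, and the HK2 libraries cancel in the difference. Over the alternatives it lay between -7.55 and -3.15.

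For HOXD1 the same difference was 1.28 (SE 0.158, edgeR adjusted p = 6.45e-07), and it lay between 1.15 and 1.47 over the alternatives.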

How the results depend on the processing

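Across all alternatives, the log2 fold changes of single HOX genes gave the same call and direction in 1272 values, gained a call in 11, lost it in 5 and changed sign in 5. No value that changed sign was called. They were those of HOXA11 in 786-M1A against 786-O without 786-M1A replicate 2 or 3 (-0.0144 to 0.0796 leaving out single libraries) and of HOXD4 in 786-O against HK2 with upper-quartile factors (-0.0161) and without 786-O replicate 1 or HK2 replicate 2 (-0.0238 to 0.0701). Leaving out single libraries, the number of HOX genes called lay between 15 and 19 in 786-M1A against 786-O (higher 4 to 5, lower 11 to 15), between 28 and 29 in 786-O against HK2 (higher 23 to 24) and between 27 and 28 in 786-M1A against HK2 (higher 22 to 23), and the lower calls stayed at 5 in the last 2. Over all genes these ranges were 6385 to 6709, 10405 to 10489 and 10531 to 10720. Beside the losses given with HOXB5 and HOXC9, HOXD3 lost its call in 786-O against HK2 without 786-O replicate 3 (adjusted p = 0.0756), and HOXB13 gained a call in 786-M1A against 786-O without 786-M1A replicate 2 (adjusted p = 0.0491), on 3 counts. Other calls gained in 786-M1A against 786-O were those of HOXA4 without 786-M1A replicate 1 (adjusted p = 0.0129), HOXA13 without 786-M1A replicate 3 (0.0379), and HOXB8 with upper-quartile factors (0.0445) and without 786-M1A replicate 1 (0.0444) or 786-O replicate 2 (0.0243). In 786-M1A against HK2, HOXD3 gained a call without 786-M1A replicate 2 (0.0454) and HOXC9 without HK2 replicate 3 (0.0434). Without the filter on low counts, the lower calls were 8 in 786-O against HK2 and 9 in 786-M1A against HK2, because members with few counts entered the test. With at least 10 counts in every library, 29 members were tested because HOXA7, HOXA13 and HOXB13 left the test and HOXA6 entered it. With a limit of 10 counts 6 genes were silent in HK2, and with a limit of 0 counts 3 were silent in 786-O. The HOXA share without length was 55.3% in HK2 against 57.7% in 786-O and 53.5% in 786-M1A, 51.5% in HK2 by the longest transcript, and 51.2% in 786-O and 46.7% in 786-M1A by the canonical transcript, an alternative chosen after seeing the data. Leaving out a library, it lay between 51.2% and 51.4% in HK2 against 49.98% and 50.6% in 786-O and 45.8% and 46.3% in 786-M1A. With the replicate number as a block, 18 HOX genes were called in 786-M1A against 786-O (HOXB8 added), 29 in 786-O against HK2 and 27 in 786-M1A against HK2. Deviations of libraries with the same number correlated at 0.215, 0.0739 and 0.110 between 786-M1A and 786-O, at -0.0286, -0.0573 and -0.0509 between 786-O and HK2 and at -0.0757, -0.167 and 0.0377 between 786-M1A and HK2. The correlations were weak, and whether libraries with the same number shared a batch was not tested. Genes at a few counts per library, such as HOXD12 and HOXD13, are limited by depth.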
